A study of Homo sapiens with 3 samples.

Results

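The DDX6 peaks whose annotation places them in protein-coding sequence were described in MOLM-13, a human acute myeloid leukaemia cell line. They are the lines of the 2 deposited peak lists, 1 per DDX6 immunoprecipitation (IP) library, whose first-listed region is coding sequence, with no limit on signal. They numbered 67324 of 123298 peaks (54.6%) in IP replicate 1 and 36238 of 62411 peaks (58.1%) in IP replicate 2, or 103562 of 185709 peaks in both lists together. The DDX6 IP group has 2 libraries, made with a Novus antibody to DDX6 from cells cross-linked with ultraviolet light and treated with RNase I. It is set against 1 input library from the same line, with no antibody listed, and no drug or gene change is given for any of the 3 libraries. No source says whether the IP libraries are separate cultures; a p-value here reflects library-to-library spread, which may be technical, and both IP libraries are set against the same input.

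DDX6 is a DEAD-box RNA helicase that represses translation and links the CCR4-NOT deadenylase complex to the decapping enzyme. It is a core component of P-bodies, the cytoplasmic granules that hold repressed mRNA. In eCLIP, the assay used here, RNA that was cross-linked to a protein is sequenced from the immunoprecipitate, and a peak is a stretch of transcript where those reads pile up. The coding sequence is the part of an mRNA that ribosomes read, between the 5′UTR and the 3′UTR.

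The count tables held 4643494 reads in IP replicate 1, 1244213 in IP replicate 2 and 7807540 in the input. Coding sequence took 34.7% of counted reads in IP replicate 1 and 32.1% in IP replicate 2, against 10.03% in the input. Among exonic reads alone the coding share was 51.3% in IP replicate 1 and 51.2% in IP replicate 2, against 32.7% in the input. Of 10 myeloid and leukaemia marker genes, 10 had at least 10 exonic reads in the input, between 25 and 1875 reads each. Of the marker lists for other lineages, the summed input reads were 15 for T cells, all in CD3D, 11 for epithelium, in KRT18 (8) and KRT8 (3), 2 for erythroid cells, in GATA1, 1 for hepatocytes, in ALB, and 0 for B cells.

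Coding peaks were short. Their median width was 42 bases in each list, with quartiles of 22 and 68 bases in IP replicate 1 and 22 and 64 bases in IP replicate 2. Peaks of the 3′UTR had medians of 56 and 46 bases in the same lists, and peaks of the 5′UTR had 44 and 48 bases. The lists held 294 and 167 coding peaks of a single base. Some neighbouring coding peaks touched: 14.97% of the gaps between successive peaks of a gene were 0 bases in IP replicate 1 and 7.09% in IP replicate 2. Joining touching peaks left 58752 and 34217 sites, with median widths of 48 and 44 bases. The widest coding peak of IP replicate 1 lay in HNRNPR, an RNA-binding protein of the hnRNP family, at chr1:23637111-23637509 (hg19, minus strand), with 399 bases and a log2 fold of IP over input of 1.30. The widest of IP replicate 2 lay in PYCARD, the inflammasome adaptor ASC, at chr16:31213762-31214038 (minus strand), with 277 bases and a log2 fold of 2.45.

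Most coding peaks held coding bases alone, 89.2% in IP replicate 1 and 87.5% in IP replicate 2. Peaks that ran across the boundary between 5′UTR and coding sequence numbered 2726 and 1626, and those that ran into the 3′UTR numbered 1740 and 844. A further 2781 and 2060 peaks took in bases annotated as splice site. In 2021 and 1221 coding peaks, under 50% of the bases were coding, so the label rests on the order in which the annotation lists its regions. Peaks that named more than 1 gene numbered 954 and 477, and were left out of the counts per gene.

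Each peak carries the authors' log2 fold of IP over input and their -log10 p. The median log2 fold of coding peaks was 2.01 in IP replicate 1 and 2.32 in IP replicate 2, above the 3′UTR peaks of the same lists at 1.69 and 2.06, and below the 5′UTR peaks at 2.23 and 2.64. Peaks of distal introns had medians of 0.59 and 2.49, so their place relative to coding peaks differed between the lists. Only 686 coding peaks of IP replicate 1 and 445 of IP replicate 2 had a log2 fold below 0. Many peaks had the same fold: 5168 distinct values covered the 67324 coding peaks of IP replicate 1 and 2345 covered the 36238 of IP replicate 2. The 10 commonest values held 29.1% of the first list and 42.6% of the second.

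**Figure D1:**
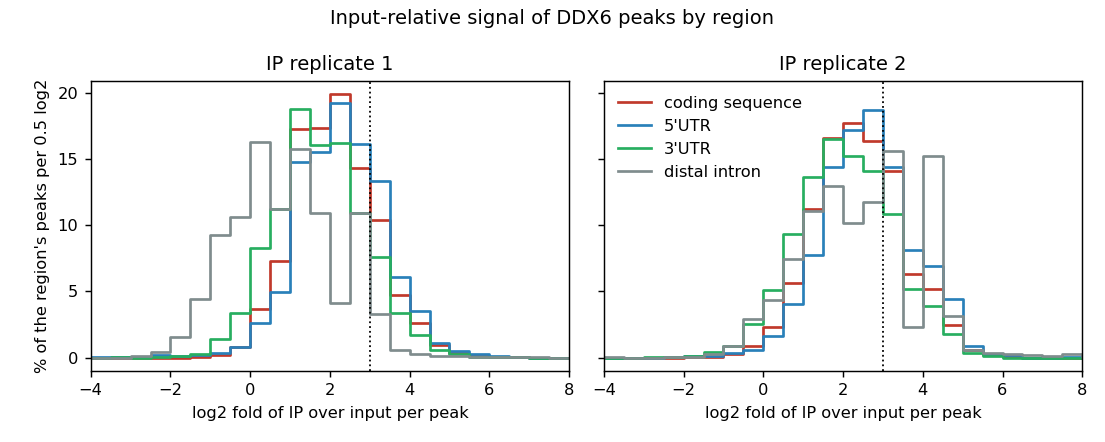
Distribution of the authors' log2 fold of IP over input per peak, as the percentage of each region's peaks in steps of 0.5, for coding sequence, 5′UTR, 3′UTR and distal intron in the 2 IP lists. The dotted line marks a log2 fold of 3; in each panel the median of coding peaks (2.01 and 2.32) lies between those of 3′UTR peaks (1.69 and 2.06) and 5′UTR peaks (2.23 and 2.64).

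A peak was taken as past the threshold at a -log10 p of at least 3 and a log2 fold of at least 3, about the lowest values found in the authors' list of reproducible peaks. Past it were 10042 coding peaks of IP replicate 1 (14.9%) and 5384 of IP replicate 2 (14.9%), against 11.5% and 12.9% of all peaks in those lists. The share over all peaks outside coding sequence was 7.31% in IP replicate 1 and 10.1% in IP replicate 2. Coding peaks made up 71.1% and 67.0% of everything past the threshold. The coding share exceeded that of 3′UTR peaks (10.6% and 10.8%) by 4.36 and 4.03 percentage points, a mean of 4.20 ± 0.24 (SD, n = 2 libraries). It lay 3.64 and 3.45 points below that of 5′UTR peaks (18.6% and 18.3%), a mean difference of -3.55 ± 0.13 (SD, n = 2 libraries). Both differences had the same direction in both libraries, but an exact two-sided sign permutation over 2 libraries cannot give less than the p of 0.5 found for each. Just inside the threshold lay peaks of PCM1 (log2 fold 3.0001) and NFX1 (3.004), and just outside it peaks of HMGCS1 (2.998) and CEBPG (2.995).

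Wider peaks passed more often. In IP replicate 1 the passing share was 10.4% among peaks under 10 bases and 26.1% among those of 150 bases or more. In IP replicate 2 it was 5.04% under 10 bases and 29.8% between 100 and 149 bases, and 25.1% above that. The share also differed by the neighbouring region, in peaks that differed in width as well. Peaks across the 5′UTR boundary passed in 17.5% and 20.7% of cases, while those running into the 3′UTR passed in 9.83% and 10.2%. Peaks of coding bases alone passed in 15.2% and 14.5%, and those with splice site bases in 9.49% and 17.5%. Median widths were 73 and 71 bases at the 5′UTR boundary, 80 and 71 at the 3′UTR, and 40 and 39 for coding bases alone. Among all coding peaks of 60 to 79 bases, 17.0% and 20.3% passed. The part of width in these shares was not tested.

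Start-side boundary peaks past the threshold overlapped between the lists in 109 genes, and stop-side ones in 25. The genes named for these edges were chosen after their values were seen, from the 6 leading ones on each side by the lower of the 2 log2 folds. On the start side IER3 led, with 7.44 and 6.33. XBP1, the unfolded-protein-response transcription factor, had a peak of 34 coding and 21 5′UTR bases in IP replicate 1 with a log2 fold of 5.50, and one with a log2 fold of 5.37 in IP replicate 2. RPL37A had only 3 coding bases beside 33 5′UTR bases there, with log2 folds of 6.56 and 5.45. ABCF1, an ATP-binding protein that takes part in translation initiation, stood at 4.87 and 4.88 across the same kind of boundary. CXCL8, at 5.61 and 5.31, and TNF, at 5.88 and 5.01, lay between RPL37A and XBP1 on one hand and ABCF1 on the other. On the stop side TNF led, with 5.96 and 5.25, before IER3, with 4.51 and 5.00. WEE1, a kinase that restrains entry into mitosis, had a peak of 70 coding and 39 3′UTR bases, with log2 folds of 3.88 and 4.78. PIK3CA, the catalytic subunit of PI3-kinase alpha, stood at 3.67 and 4.23 with 38 coding and 101 3′UTR bases in IP replicate 1.

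Coding peaks that overlapped a coding peak of the other list by at least 1 base on the same strand numbered 22956 of 67324 (34.1%) in IP replicate 1 and 20475 of 36238 (56.5%) in IP replicate 2. The first list is the longer and comes from the deeper library. When the overlap had to cover at least 50% of both peaks, the shares were 16.6% and 30.9%. Sharing of 3′UTR peaks was 28.0% and 51.6%, of 5′UTR peaks 38.9% and 52.3%, and of distal-intron peaks 3.74% and 11.4%. Over 22956 overlapping coding pairs the median overlap was 29 bases. In those pairs the median log2 fold was 2.01 in IP replicate 1 and 2.06 in IP replicate 2, the median difference of replicate 2 minus replicate 1 was -0.01 (quartiles -0.58 and 0.58), and 73.8% of pairs lay within 1 log2 unit.

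Sharing was highest at the largest -log10 p. In IP replicate 1 it was 17.8% where p was above 0.05 and 91.4% at a -log10 p of 50 or more. In IP replicate 2 it was 59.9% where p was above 0.05, 46.6% from there to a -log10 p of 3, and 95.7% at 50 or more. Along the fold the courses were not monotonic. Coding peaks of IP replicate 2 were shared in 95.7% of cases below a log2 fold of 0, in 36.8% between 4 and 5, and in 81.5% at 6 or more. In IP replicate 1 the share was 38.8% below 0, 32.1% between 3 and 4, and 71.7% at 6 or more, a bin of only 46 peaks. The bin between 4 and 5 in IP replicate 2 had a median -log10 p of 2.79, below the 3.05 of the bin under it. Of the coding peaks past the threshold, 2027 of IP replicate 1 (20.2%) and 1731 of IP replicate 2 (32.2%) overlapped one past it in the other list. When the partner could be any coding peak, 41.8% and 58.7% found one. Passing peaks of the other regions overlapped each other more often than passing coding peaks did. Their shares were 21.2% and 35.3% for 3′UTRs, 26.6% and 34.8% for 5′UTRs, and 48.4% and 35.4% for distal introns.

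**Figure D2:**
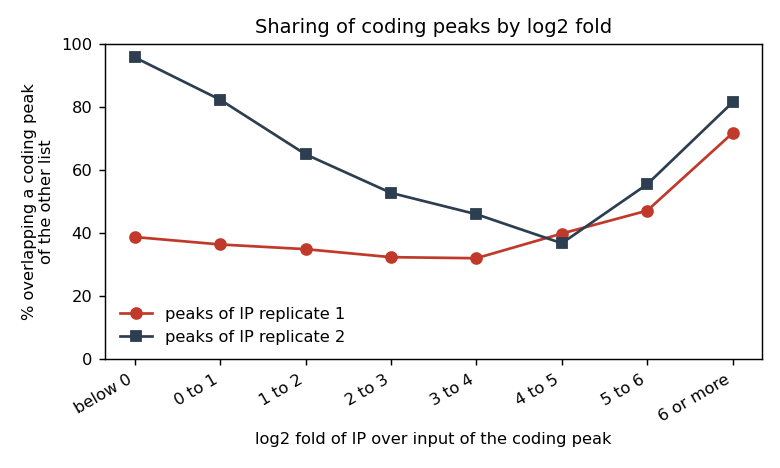
Percentage of coding peaks that overlap a coding peak of the other IP list by at least 1 base, on the y axis, by bin of log2 fold of IP over input, on the x axis, with 1 line per list. Peaks of IP replicate 2 are shared in 95.7% of cases below 0 and in 36.8% between 4 and 5, while peaks of IP replicate 1 lie near 32.1% to 39.9% up to a log2 fold of 5.

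Coding peaks were spread over 9556 genes in IP replicate 1 and 7380 in IP replicate 2. Both lists had one in 7147 genes. A gene with any had a median of 5 peaks in IP replicate 1 and 3 in IP replicate 2. A single peak was found in 1219 and 1520 genes, and 20 or more in 492 and 111. The most per gene were 78 in PCM1, a scaffold of centriolar satellites, and 67 in MACF1, a giant cytoskeletal cross-linker. The number moved with reads: genes with 10 to 29 coding reads had a median of 2 peaks in each library, and genes with 300 to 999 had a median of 15 in each. Past the threshold were peaks in 3006 and 2401 genes, and 1631 genes had one in both lists, which is 54.3% of the first set and 67.9% of the second. The count tables gave coding reads under the name of 1608 of them, which is 11.9% of the 13504 genes with coding reads. In the other 23 the tables gave no coding reads under that name. In 866 of those genes a passing peak of one list overlapped a passing peak of the other.

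The 10 genes with most passing peaks in both lists encode large nuclear regulators, signalling and ubiquitin proteins, a ribosomal protein and a cytokine. ZNF292, a zinc finger protein, had 31 peaks past the threshold in IP replicate 1 and 23 in IP replicate 2, out of 36 and 29. HIVEP1, a zinc finger factor that binds enhancers of the kappa-B type, had 29 of 29 and 21 of 22. ZEB2, a repressor active in haematopoietic differentiation, had 41 of 46 and 20 of 25. With touching peaks joined, the passing peaks formed 25 and 20 sites in ZNF292, 25 and 21 in HIVEP1 and 17 and 16 in ZEB2, so they lay in many places along each coding sequence. In reads, ZEB2 had 3293 reads in IP replicate 1 and 747 in IP replicate 2, against 366 in the deeper input. That is 668 and 584 CPM in the IP libraries, against 69.7 CPM in the input, on library sizes scaled by edgeR.

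JMJD1C, a Jumonji-domain protein, had 41 and 17 passing peaks, and PHF3, a PHD-finger protein that binds RNA polymerase II, had 35 and 14. VCPIP1, a deubiquitinase, had 27 and 19, and ANKRD17, an ankyrin-repeat protein, had 16 and 18, the one gene of the 10 with more in the shallower library. WNK1, a kinase that regulates ion transport, had the lowest passing shares of the 10 in both lists: 20 of 63 in IP replicate 1 and 18 of 34 in IP replicate 2. Its median log2 fold per coding peak was 2.68 and 3.08, against 3.81 and 3.38 in ZNF292.

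RPL37A, a protein of the large ribosomal subunit, and TNF, the inflammatory cytokine, had their peaks on the fewest bases of the 10 genes. RPL37A had 27 and 17 coding peaks, all past the threshold and all at the highest -log10 p in the lists, 400, yet they lay in 4 joined sites per list that covered 316 and 333 bases. TNF had 20 and 14, also all past the threshold and all at 400, over 287 and 361 bases. The TNF peaks joined into 7 sites in IP replicate 1 and 10 in IP replicate 2. RPL37A had 34742 coding reads in IP replicate 1 and 8383 in IP replicate 2, against 1601 in the input. TNF had 5681 and 1307, against 189 in the input. The log2 fold of the coding region was 4.48 (SE 0.57) for RPL37A and 4.92 (SE 0.50) for TNF in edgeR. Ribosomal protein genes have near-identical processed copies elsewhere in the genome, and how reads that match several places were treated is not known, so the RPL37A values are uncertain.

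**Figure D3:**
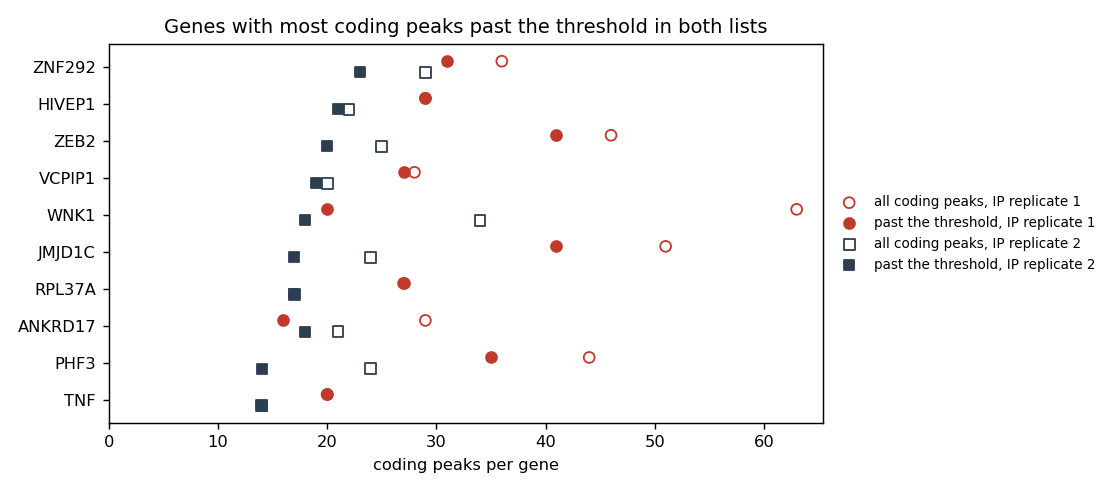
Coding peaks per gene (x axis, count) in the 10 genes with most peaks past the threshold in both lists, with open symbols for all coding peaks and filled symbols for those past the threshold, circles for IP replicate 1 and squares for IP replicate 2. In HIVEP1, VCPIP1, RPL37A and TNF open and filled symbols nearly coincide, while in WNK1 20 of 63 and 18 of 34 peaks passed.

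A -log10 p of 400 was reached by 256 coding peaks in 52 genes in IP replicate 1 and by 64 in 17 genes in IP replicate 2, and 15 genes had one in both. Besides RPL37A and TNF these peaks lay in PABPC1, the cytoplasmic poly(A)-binding protein, with 25 in IP replicate 1 and 2 in IP replicate 2. XBP1 had 19 and 7, and CXCL8, a chemokine that attracts neutrophils, had 13 and 3. PABPC1 was named after its values were seen and has close paralogs.

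The overlapping passing peaks with the largest log2 folds in both lists came from 2 kinds of gene. The first kind had few reads, all peaks in a single place. AJAP1 had a peak at chr1:4772075-4772096 (hg19, plus strand) of 22 bases, with log2 folds of 7.42 and 8.89. Its whole coding region held 87 reads in IP replicate 1 and 76 in IP replicate 2, against 0 in the input. Against a floor of 3 input reads IP replicate 1 was at least 30.9-fold higher, and for IP replicate 2 the bound was at least 104-fold higher. GRIK4, a kainate receptor subunit, had its site at chr11:120732816-120732828 (plus strand), with log2 folds of 6.33 and 9.56. It had 41 and 121 coding reads in the IP libraries, against 2 in the input. Its ratio to the input was 21.8 (95% exact interval 5.67 to 186) in IP replicate 1 and 248 (67.3 to 2074) in IP replicate 2. TTN, the giant sarcomere protein titin, had 70 and 17 coding reads, against 1 in the input, with its site at chr2:179452432-179452452 (minus strand). Its ratio was 74.6 (13.0 to 2987) in IP replicate 1 and 69.8 (10.9 to 2916) in IP replicate 2. In each of the 3 genes the coding peaks of a list joined into 1 site, and these intervals and floors cover counting error only.

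The second kind was well covered. IER3, a stress-inducible early response gene, had the highest log2 fold of any coding peak of IP replicate 1, 7.44, at chr6:30712248-30712321 (minus strand), across the 5′UTR boundary, and 6.33 in IP replicate 2. PRDM2, a zinc finger protein of the PR-domain family, had a 14-base peak at chr1:14104913-14104926 (plus strand) with log2 folds of 6.26 and 6.23, within 17 and 11 passing coding peaks. EIF3A, the largest subunit of translation initiation factor eIF3, had a peak at chr10:120809462-120809494 (minus strand) at 6.996 and 5.71. XBP1 had one at chr22:29196288-29196352 (minus strand) at 6.50 and 5.57. RPL37A, at chr2:217363993-217364041, stood at 6.68 and 6.11, and TNF, at chr6:31543702-31543704, at 6.21 and 5.60, both on the plus strand. The remaining 1 of the 10 lay on chromosome Y and is not described. The lowest log2 folds of both lists, -3.40 and -2.47, lay in RANBP1, a regulator of the nuclear transport GTPase Ran, at chr22:20113995-20114047 and chr22:20113951-20114047 on the plus strand.

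The authors' deposited table of reproducible peaks had 1587 peaks, of which 957 overlapped a coding peak of either list. In 921 of them (58.0%), in 293 genes, every overlapping peak of both lists was a coding peak. ZEB2 had 26 of these 921, RPL37A 25, XBP1 20, and SON, a nuclear-speckle protein, and TNF 17 each. The median log2 fold in that table was 3.84 for these 921 and 3.85 for the others.

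DDX6 itself had coding peaks, 23 in IP replicate 1 and 13 in IP replicate 2, of which 9 and 3 passed the threshold. Its coding region held 563 and 101 reads in the IP libraries, against 100 in the input, a log2 fold of 2.36 (SE 0.36). Its 3′UTR held 1037 and 202 reads, against 624 in the input.

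Reads per coding region gave a test that does not depend on how peaks were cut. Of 8169 coding regions with at least 10 reads in at least 2 libraries, 4183 (51.2%) were higher and 17 (0.208%) lower in the DDX6 IP at an adjusted p under 0.05, by edgeR's quasi-likelihood test fitted over 28825 regions of all kinds. Over all those regions 24.5% were higher and 31.9% lower. Coding regions had a median log2 fold of 1.02, against 0.28 for 3′UTRs, 0.74 for 5′UTRs and -1.93 for introns. The test has 1 input library and 1 residual degree of freedom, and the input is assumed to vary like the IP libraries. The level of these folds rests on the scaling: with exonic regions alone in the fit the median of coding regions was 0.28, with 1559 higher and 224 lower, and with library size alone it was 1.74, with 6628 higher and 2 lower. DESeq2 called 2195 higher and 2 lower.

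Peaks and reads met in most genes. Of the 1631 genes with a passing coding peak in both lists, 1604 were tested, and 1557 of them were higher in the IP, with the other 47 not called. These use the same libraries and are no independent check. Conversely, 1132 of the 4183 higher coding regions (27.1%) had no passing coding peak in either list. Their median log2 fold was 1.34.

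The 17 lower coding regions, 0.208% of those tested, included 5 of 73 tested ribosomal protein genes. With DESeq2 or library size alone 0 ribosomal protein genes were lower, and with exonic regions alone in the fit 23 were. RANBP1 was lowest of the 17, with 168 reads in IP replicate 1 and 58 in IP replicate 2, against 894 in the input, a log2 fold of -2.14 (SE 0.31). The host gene of a let-7 cluster, MIRLET7BHG, had 15 and 12, against 90. RFX8, of the RFX transcription factor family, had 15 and 2, against 45, and PIGQ, an enzyme of GPI-anchor synthesis, had 14 and 4, against 42. MT-ATP8, a mitochondrially encoded subunit of ATP synthase, had 298 and 44, against 647, a log2 fold of -1.32 (SE 0.31). Scaled to library size alone, RFX8 (-0.97), PIGQ (-0.72) and MT-ATP8 (-0.59) were no longer called. DESeq2 called 2 coding regions lower, RANBP1 and MT-ATP8. It did not call MIRLET7BHG (-1.54), RFX8 or PIGQ.

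Within genes, the coding region was compared with the 3′UTR of the same gene. Neither the scaling of the libraries nor a level common to both regions enters that comparison. Counts are per gene, so transcripts that hold only 1 of the regions were not separated. Of 6552 genes with both regions measured, the coding region had the larger IP to input ratio in 1942 (29.6%) and the smaller in 46 (0.702%), by edgeR's quasi-likelihood interaction test at an adjusted p under 0.05. The median coding minus 3′UTR difference was 0.82 log2 (quartiles 0.35 and 1.27), with 0.74 in IP replicate 1 and 0.90 in IP replicate 2. DESeq2 gave a median of 0.85 but called 235 and 7. The authors' folds per peak, taken as the median over a gene's peaks of each region, gave coding minus 3′UTR medians of 0.51 over 6766 genes in IP replicate 1 and 0.47 over 4396 genes in IP replicate 2.

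RPL37A had the largest difference, 4.08 (SE 0.38): its 3′UTR held 232 and 29 reads in the IP libraries, against 143 in the input, beside the coding reads given above. NABP1, a single-stranded DNA-binding protein, had 199 and 21 coding reads, against 24 in the input, but 256 and 54 3′UTR reads, against 460 in the input. Its difference was 3.61 (SE 0.41). In NABP1 the coding region was thus high and the 3′UTR low in the same libraries. ZNF277 and ZNF7, zinc finger proteins, had differences of 3.32 (SE 0.47) and 3.29 (SE 0.54), and RPL37, another large-subunit protein, 3.30 (SE 0.34).

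On the other side, PCNT, the centrosome scaffold pericentrin, had a difference of -2.37 (SE 0.48). It had 476 and 109 coding reads, against 217 in the input, and 128 and 28 3′UTR reads, against 11 in the input. NOTCH1, the receptor, stood at -1.99 (SE 0.37), with 276 and 84 coding reads, against 142 in the input, and 359 and 90 3′UTR reads, against 43 in the input. In both genes the coding region was itself above the input in each IP library, and the 3′UTR was further above it. H2BC5, a histone H2B gene, was at -2.07 (SE 0.39), MBD6, a methyl-CpG-binding-domain protein, at -1.88 (SE 0.44), and HERC2, a large ubiquitin ligase, at -1.83 (SE 0.48). DESeq2 did not call HERC2 (-1.87), and it gave no call for MBD6 or, among the genes with larger coding ratios, ZNF277.

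**Figure D4:**
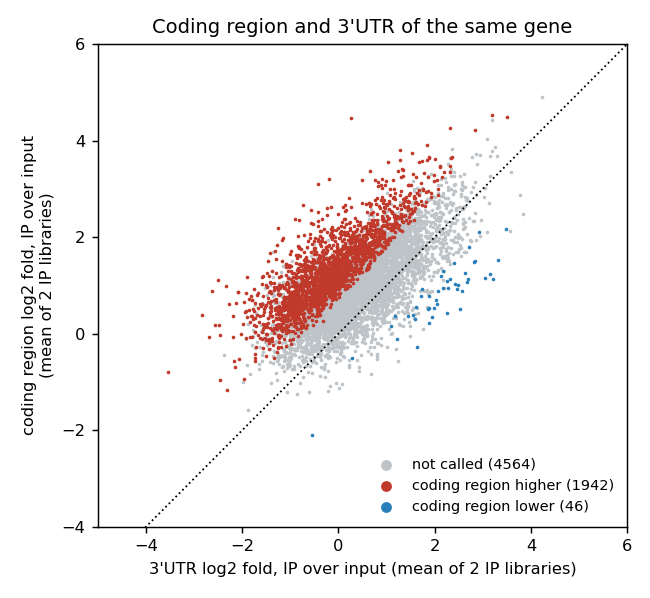
Log2 fold of IP over input of the coding region (y axis) against that of the 3′UTR of the same gene (x axis), each the mean of the 2 IP libraries, for 6552 genes, with called genes in colour. Most genes lie above the dotted line of equality; 1942 were called with the coding region higher and 46 with it lower.

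Against the 5′UTR the picture was closer to even, and the measures differ in sign. Of 1971 genes, 69 (3.5%) had the larger ratio in the coding region and 16 (0.812%) the smaller by the same edgeR test, with a median of 0.27 log2. The authors' folds per peak gave coding minus 5′UTR medians of -0.17 over 2569 genes and -0.29 over 1792 genes, which covers only genes with peaks in both regions. CCDC14, a centriolar-satellite protein, had the largest difference, 4.93 (SE 0.67). It had 678 and 139 coding reads, against 112 in the input, and 51 and 15 5′UTR reads, against 298 in the input. DYRK1A, a kinase, followed with 3.98 (SE 0.77), U2SURP, a splicing-associated protein, with 3.88 (SE 0.72), LONRF1, a RING-finger protein, with 3.66 (SE 0.68), and TASOR, of the HUSH silencing complex, with 3.17 (SE 0.75).

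The lower end of that comparison was held by histone genes and RPS24, a small-subunit protein. RPS24 had 1430 and 286 coding reads, against 1179 in the input, and 147 and 70 5′UTR reads, against 14 in the input, a difference of -3.69 (SE 0.73). In H2BC12 the 5′UTR held 72 and 50 reads, against 3 in the input, which is 25.6 (95% exact interval 8.41 to 127) and 68.4 (22.1 to 343) times the input level. In H4C3 it held 43 and 13, against 3, or 15.3 (4.89 to 77.0) and 17.8 (4.89 to 97.3) times. In EP400, a chromatin remodeller, it held 30 and 12, against 1, or 32.0 (5.31 to 1304) and 49.3 (7.29 to 2105) times. In H2BC11 it held 30 and 14, against 0, at least 10.7-fold and 19.2-fold higher than a floor of 3 input reads. The calls of EP400 and H4C3 were lost with DESeq2 and without the read filter, and that of H2BC11 with DESeq2. Histone genes of a family are nearly identical in sequence, and RPS24 has close copies, so their reads may be split between genes.

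Gene lists set the coding peaks beside what the encoded proteins do. The lists and their members were chosen with earlier results of these data known, so their shares are descriptive and no independent support. The counts over each list's members with coding reads stand beside the 11.9% of all genes with coding reads that had a passing coding peak in both lists, beside the 19.6% of genes with a tested coding region that had one, and beside the 51.2% of tested coding regions called higher and the median log2 fold of 1.02. A list's count moves with the length and reads of its members, and that part was not tested. With exonic regions alone in the fit, 1559 of all 8169 tested coding regions were higher, with a median of 0.28. The list medians below were then lower by a similar amount, and those that changed sign are named. DESeq2 called 2195 of the 8169 higher. Library size alone, where 6628 of the 8169 coding regions were higher with a median of 1.74, raised each list's median and its number called higher.

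Zinc finger genes of the C2H2 class, which encode DNA-binding repressors and regulators, had a passing coding peak in both lists in 116 of 314 members (36.9%), or 45.7% of those tested. In reads, 213 of 254 tested were higher, with a median log2 fold of 2.23. With exonic regions alone in the fit 155 were higher and 2 lower, and DESeq2 called 156 higher. After ZNF292, the leading members were ZNF644, with 19 and 14 passing peaks, and ZNF850, with 22 and 11. ZNF850 had 1067 and 205 coding reads in the IP libraries, against 73 in the input, a log2 fold of 3.77 (SE 0.40). This gene family has many similar members, so reads may be split between them.

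Chromatin modifiers had such a peak in 62 of 90 members (68.9%), and 83 of 90 were higher in reads (44 with exonic regions alone in the fit), with a median of 1.57. CHD1, a chromatin remodeller, had 15 and 12 passing peaks, and KMT2E, of the MLL protein family, had 21 and 11, after JMJD1C. Cohesin subunits, regulators and CTCF, which shape chromosome loops, had one in 10 of 14 members, and 12 of 14 were higher, with a median of 1.66. STAG2 led with 12 and 5 passing peaks, followed by SMC1A with 11 and 5 and PDS5B with 10 and 5. Centrosome and spindle genes had one in 21 of 32 members (65.6%), and 29 of 32 were higher, with a median of 1.40. With exonic regions alone in the fit 12 of the 32 were higher, against 1559 of all 8169 coding regions. MKI67, the proliferation antigen Ki-67, is in this list although it is not a centrosome or spindle component, and had 11 and 8. ASPM, a spindle-pole protein, had 5 and 4, and CEP350, a centrosomal protein, 4 and 4. The read fold of ASPM was 0.53 and not called with exonic regions alone in the fit.

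Genes of P-bodies and mRNA decay, the machinery DDX6 belongs to, had a passing coding peak in both lists in 25 of 49 members (51.0%). In reads, 38 of 49 were higher (21 with exonic regions alone), with a median of 1.41. CNOT1, the scaffold of the CCR4-NOT complex, had 9 passing peaks in each list, of 34 and 22. ZFP36, which binds AU-rich elements and brings mRNAs to decay, had 9 of 9 and 7 of 7. CNOT6L, a deadenylase of the same complex, had 9 and 4. ZFP36 had 2204 and 623 coding reads in the IP libraries, against 238 in the input, a log2 fold of 3.36 (SE 0.42).

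Immediate early and inflammatory genes had one in 17 of 38 members (44.7%, or 54.8% of those tested), and 30 of 31 tested were higher, with a median of 2.62. With exonic regions alone in the fit 23 were higher, and DESeq2 also called 23. Of all coding peaks in this list, 75.5% passed in IP replicate 1 and 65.3% in IP replicate 2. After TNF, MYC, a transcription factor that drives growth, had 17 of 18 and 8 of 14, and CXCL8 13 of 13 and 8 of 8. CXCL8 had 1409 and 259 coding reads, against 52 in the input, a log2 fold of 4.63 (SE 0.43).

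The other 5 lists lay below the share over all genes. Among 76 cytosolic ribosomal protein genes, 75 had a coding peak of some kind in both lists, with medians of 14 and 9 peaks per gene, but only RPL37A had one past the threshold in both. In reads, 8 of 73 were higher and 5 lower, with a median of 0.21, but with exonic regions alone in the fit 2 were higher and 23 lower, with a median of -0.53. With library size alone 48 were higher and 0 lower, with a median of 0.94, against 6628 of all 8169 coding regions higher. DESeq2 called 5 higher and 0 lower. RPL37 had 9 of 9 passing in IP replicate 1 but 0 of 5 in IP replicate 2. RPL10 had 0 passing of 27 and 13, and its log2 fold of 0.09 became -0.65 with exonic regions alone in the fit and -0.20 without the filter on reads. With library size alone it was 0.81 and called higher. Nuclear-encoded respiratory chain genes had a passing coding peak in both lists in 0 of 71 members, and 8 of 70 were higher in reads (0 by DESeq2), with a median of 0.46, or -0.28 with exonic regions alone in the fit. With library size alone 52 of the 70 were higher, with a median of 1.19, beside the same 6628 of 8169. In NDUFS1, NDUFA10 and NDUFS7, of complex I, 0 peaks passed in IP replicate 1 and 2 each in IP replicate 2. Their read folds of 0.64, 0.53 and 0.75 did not pass the test, and those of NDUFS1 and NDUFA10 became -0.10 and -0.22 with exonic regions alone in the fit. With library size alone they were called higher, at 1.37, 1.25 and 1.47.

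Translation initiation and elongation factors had a passing coding peak in both lists in 3 of 35 members, EIF3A, EIF5B (5 in each list) and EIF4G3 (2 and 3), although 17 of 34 were higher in reads, or 2 with exonic regions alone in the fit. Replication-dependent histone genes had one in 1 of 53 members, while 34 of 52 were higher in reads, with a median of 0.93, or 3 and a median of 0.20 with exonic regions alone in the fit. Mitochondrially encoded mRNAs had one in 0 of 13 members, with 2 higher and 1 lower and a median of 0.24, or -0.49 with exonic regions alone in the fit. With library size alone 10 of the 13 were higher and 0 lower, with a median of 0.97, against 6628 of all 8169 coding regions higher. MT-ND2 had 5736 and 2111 coding reads, against 2104 in the input, a log2 fold of 1.81 (SE 0.42). With exonic regions alone in the fit its fold was 1.08 and not called. It had 0 passing peaks in IP replicate 1 and 1 in IP replicate 2. MT-ATP6 had a log2 fold of -0.34 (SE 0.34), which became 0.39 when scaled to library size alone. With exonic regions alone in the fit MT-ATP6 was at -1.08 and called lower. How far strand was used in counting is not known, so genes that overlap on opposite strands cannot be told apart in the read counts.

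**Figure D5:**
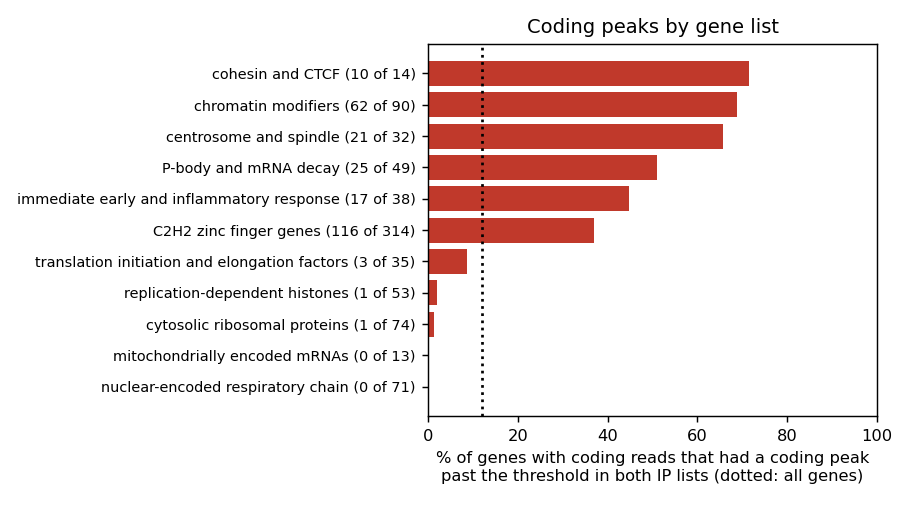
Percentage of each gene list's members with coding reads (x axis) that had a coding peak past the threshold in both IP lists, with the numbers beside each name and a dotted line at 11.9%, the share over all 13504 genes with coding reads. Cohesin and CTCF, chromatin modifiers, centrosome and spindle, P-body, immediate early and zinc finger lists lie above the line, the other 5 lists below it. The lists were chosen with earlier results of these data known.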

How the data were processed

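DDX6 eCLIP was measured in 2 IP libraries and 1 input library of MOLM-13 cells. Per the submitters' processing notes, the tools were UMI-tools, cutadapt, STAR and SAMtools, on build hg19. Tool versions, peak caller, read counter, annotation and strand setting: not given in the sources used here. Each library has a table of raw counts of reads by gene and transcript region, as deposited by the authors, beside 1 peak list per IP library and a list of reproducible peaks. The deposited peak lists give each peak a -log10 p, which reaches 400 at most, and a log2 fold of IP over input. Lines of column totals and intergenic reads (4.05% and 3.78% of IP reads, against 2.63% of input reads) were left out of tests and library sizes.

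Coding peaks were selected by the first region of their annotation. Overlap was at least 1 base on the same strand. A peak was past the threshold at a -log10 p of at least 3 and a log2 fold of at least 3. Counts were tested with edgeR 4.0.16 (glmQLFit, glmQLFTest, TMM scaling, R 4.3.3) for regions with at least 10 reads in at least 2 libraries, with Benjamini-Hochberg adjusted p under 0.05. Library-wise log2 folds used a prior count of 2. The fit had a common dispersion of 0.0356 and infinite prior degrees of freedom. Within genes, the same test took the interaction of region and IP with library as a term. On simulated counts over 28825 regions, 77% of 4-fold and 7% of 2-fold changes were recovered, with 4 false calls of 88, and over 6552 genes for the coding region against the 3′UTR the shares were 78% and 8%, with 3 of 89. Each simulation changed 200 rows, evenly up and down, and gave every library, the input too, the same dispersion. In the data 24.5% of regions were called higher and 31.9% lower, so these rates need not hold there. Of 29754 Ensembl identifiers, 28576 matched the symbol table. Alternatives used DESeq2 1.42.0, other scalings, other read filters, other thresholds and overlaps, and each library alone.

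The text names the 10 genes with most passing peaks in both lists, the 10 overlapping passing peaks with the largest lower log2 fold (1 per gene), up to 3 leading members per gene list, the 5 largest and 5 smallest called differences between the coding region and each UTR among genes with the same sign in both libraries and reads above the median, the 5 lowest called coding regions, the widest peaks and DDX6. The members and lists were chosen with earlier results of these data known. No peak sequences are given, as no hg19 genome was used here.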

Additional observations from a re-analysis of the deposited data

How the results depend on the processing

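No paired analysis was possible because there is 1 input library. The share of coding peaks past the threshold averaged 14.9% over the lists, 8.71% with a -log10 p of at least 5 and 36.2% with a log2 fold of at least 1, and genes with one in both lists numbered 1631, 809 and 3040. The mean shared percentage was 45.3, and 23.8 when 50% of both peaks had to overlap. The mean of the median widths was 42 bases, 46 with touching peaks joined and 53 past the threshold. The mean of the median log2 folds was 2.16, and 2.83 for a -log10 p of at least 3. Coding regions higher and lower in the IP numbered 4183 and 17, 2195 and 2 with DESeq2, 6628 and 2 with library size alone, 2704 and 32 without the read filter, 1559 and 224 with exonic regions alone, and 3 lower with at least 30 reads. Their median log2 fold of 1.02 was 1.04, 1.74, 0.86 and 0.28 in the first 4 of these, 1.21 with at least 30 reads, and 0.97 to 0.98 with 1 IP library. Coding against 3′UTR calls with DESeq2 were 235 and 7. Coding against 5′UTR calls of 69 and 16 were 17 and 5 with DESeq2, 36 and 4 without the filter, and 44 higher with at least 30 reads. RPL10 turned to -0.20 without the filter and -0.65 with exonic regions alone, where NDUFA10 turned to -0.22 and NDUFS1 to -0.10, and MT-ATP6 turned to 0.39 with library size alone. The cause was not tested. Depth limits single peaks: IP replicate 1 held 4643494 reads and IP replicate 2 held 1244213, and many peaks had the same fold.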
